A study of Rattus norvegicus with 18 samples.

Results

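The nuclear genes for the subunits of respiratory complexes II to V and for cytochrome c were described in the tibialis anterior, a fast shin muscle, of rats with and without Duchenne-type muscular dystrophy (DMD). They were chosen by symbol alone: Sdha to Sdhd, every symbol starting with Uqcr, Cyc1, Cycs, every Cox4 to Cox8 symbol and every symbol starting with Atp5. The rule found 48 of the 30560 entries of the count table, which carry 45 distinct symbols: 4 for complex II, 9 for complex III, 1 for cytochrome c, 17 for complex IV and 17 for complex V. RNA-seq was done on wild-type rats (WT) of 3 months (n = 3), 9 months (n = 3) and 18 months (n = 3), on DMD rats of 9 months (n = 3) and on p16-null DMD rats of 9 months (n = 6). The last group carries the dystrophic genotype together with loss of p16, a cell cycle inhibitor encoded by Cdkn2a that marks senescent cells. The labels describe neither edit, name no strain and do not say whether each library is a separate rat, which means that a p-value here reflects spread among libraries only. The study set the 3 groups of 9 months against each other, and WT of 18 months against WT of 3 months.

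The respiratory chain passes electrons from nutrients to oxygen across the inner mitochondrial membrane, and the proton gradient this builds drives ATP synthesis. Complex II takes electrons from succinate, complex III hands them to cytochrome c, complex IV passes them on to oxygen, and complex V is the ATP synthase. All subunits of complex II are nuclear. Mitochondrial DNA encodes cytochrome b of complex III, the catalytic core of complex IV and part of complex V. The assembly of complexes III to V therefore needs products of both genomes. Muscle fibres are rich in these complexes, and complex IV has isoforms that are made mainly in heart and skeletal muscle, such as Cox6a2 and Cox7a1.

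Some members share short runs of letters in the sequence near their start sites. RefSeq promoters of the build GRCr8, from 250 bases before to 50 bases after the start, were matched for 34 of the 40 symbols tested. Each was searched on both strands for 4 motifs of factors known to act on nuclear genes of the respiratory chain: NRF1 (GCGCA, any base, then GCGC), ETS factors such as GABPA (CCGGAAGT), the oestrogen-related receptors (TCAAGGTCA) and YY1 (AAGATGGCG), which do not overlap in the promoters printed here. At least 1 motif lay in 12 member promoters (35.3%) and in 9.45% of all 33469 promoters, which were not matched to the members for base content or expression. NRF1 letters lay in 5 member promoters (14.7%, against 4.25% of all), ETS letters in 4 (11.8%, against 3.81%), receptor letters in 2 (5.88%, against 0.433%) and YY1 letters in 3 (8.82%, against 1.73%). A match is only a run of letters and not a measured binding site, and its absence says nothing of the factor. The promoters of Sdha, Uqcrc1 and Atp5mc3 are printed because they hold more than 1 such run each, marked by capitals. Sdha lies at chr1:30764303-30764602 on the plus strand and holds 3 NRF1 runs. Uqcrc1 lies at chr8:118467973-118468272 on the plus strand and holds 1 NRF1 and 1 YY1 run. Atp5mc3 lies at chr3:79220615-79220914 on the minus strand and holds 1 receptor run followed by 1 NRF1 run. The receptor and NRF1 runs of Atp5mc3 and the NRF1 run of Uqcrc1 match on the other strand, so the letters printed are the reverse complement of the motif.
Sdha: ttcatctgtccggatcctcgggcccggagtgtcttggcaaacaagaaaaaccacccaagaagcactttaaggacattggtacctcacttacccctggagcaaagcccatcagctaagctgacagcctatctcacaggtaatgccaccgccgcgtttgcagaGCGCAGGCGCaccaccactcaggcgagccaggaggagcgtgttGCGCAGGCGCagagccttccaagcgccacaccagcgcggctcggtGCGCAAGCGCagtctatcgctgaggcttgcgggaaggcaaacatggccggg
Uqcrc1: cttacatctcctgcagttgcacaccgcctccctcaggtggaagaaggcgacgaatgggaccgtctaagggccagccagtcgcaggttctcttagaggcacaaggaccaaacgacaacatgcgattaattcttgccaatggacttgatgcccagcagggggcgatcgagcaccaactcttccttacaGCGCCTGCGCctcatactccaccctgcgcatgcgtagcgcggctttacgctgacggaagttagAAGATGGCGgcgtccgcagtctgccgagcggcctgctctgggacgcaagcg
Atp5mc3: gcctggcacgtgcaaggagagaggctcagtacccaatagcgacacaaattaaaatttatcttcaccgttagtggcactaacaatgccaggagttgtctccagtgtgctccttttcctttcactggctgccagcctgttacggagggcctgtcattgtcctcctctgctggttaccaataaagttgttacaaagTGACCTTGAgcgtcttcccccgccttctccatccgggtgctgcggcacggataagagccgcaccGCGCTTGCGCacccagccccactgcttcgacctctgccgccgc

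Library totals ran from 9607819 to 21992631 counts. Dmd, the dystrophin gene, had 140 ± 26.9 CPM (counts relative to library size; SD, n = 3) in WT of 9 months, 36.9 ± 6.65 in DMD (n = 3) and 42.5 ± 8.33 in p16-null DMD (n = 6). Cdkn2a had 0.106 ± 0.0952, 14.2 ± 4.56 and 12.3 ± 1.69 CPM in the same groups, and the gene count does not check the p16-null label, since the edit is not described and the gene also encodes a second protein. Levels below are CPM after TMM scaling over all 18 libraries unless TPM, which is also divided by transcript length, is named. A gene was called where edgeR's quasi-likelihood test gave a Benjamini-Hochberg adjusted p under 0.05 over all genes tested.

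Of the 48 entries, 43 had enough counts to be tested at 9 months. Cox8c, Cox7b2 and the pseudogene Cox6c-ps1 had no count in any library, and Atp5me and Cox6b1-ps1 had too few. At 9 months, 37 of the 43 were lower in DMD than in WT, 1 was higher and 5 did not pass, while 21.8% of all 14801 genes tested were lower and 26.4% higher. The median log2 fold change was -1.51 over the members and 0.11 over all genes. The falls ran from 1.63-fold to 4.31-fold with a median of 2.90-fold, and they reached all 4 genes of complex II, 8 of 9 of complex III, cytochrome c, 9 of 13 tested of complex IV and 15 of 16 of complex V. In p16-null DMD 37 members were lower than in WT and 1 was higher, with a median of -1.36, against 22.7% and 27.5% of all genes. A member that passes the count filter only through its WT libraries must differ, so these counts are a description.

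**Figure D1:**
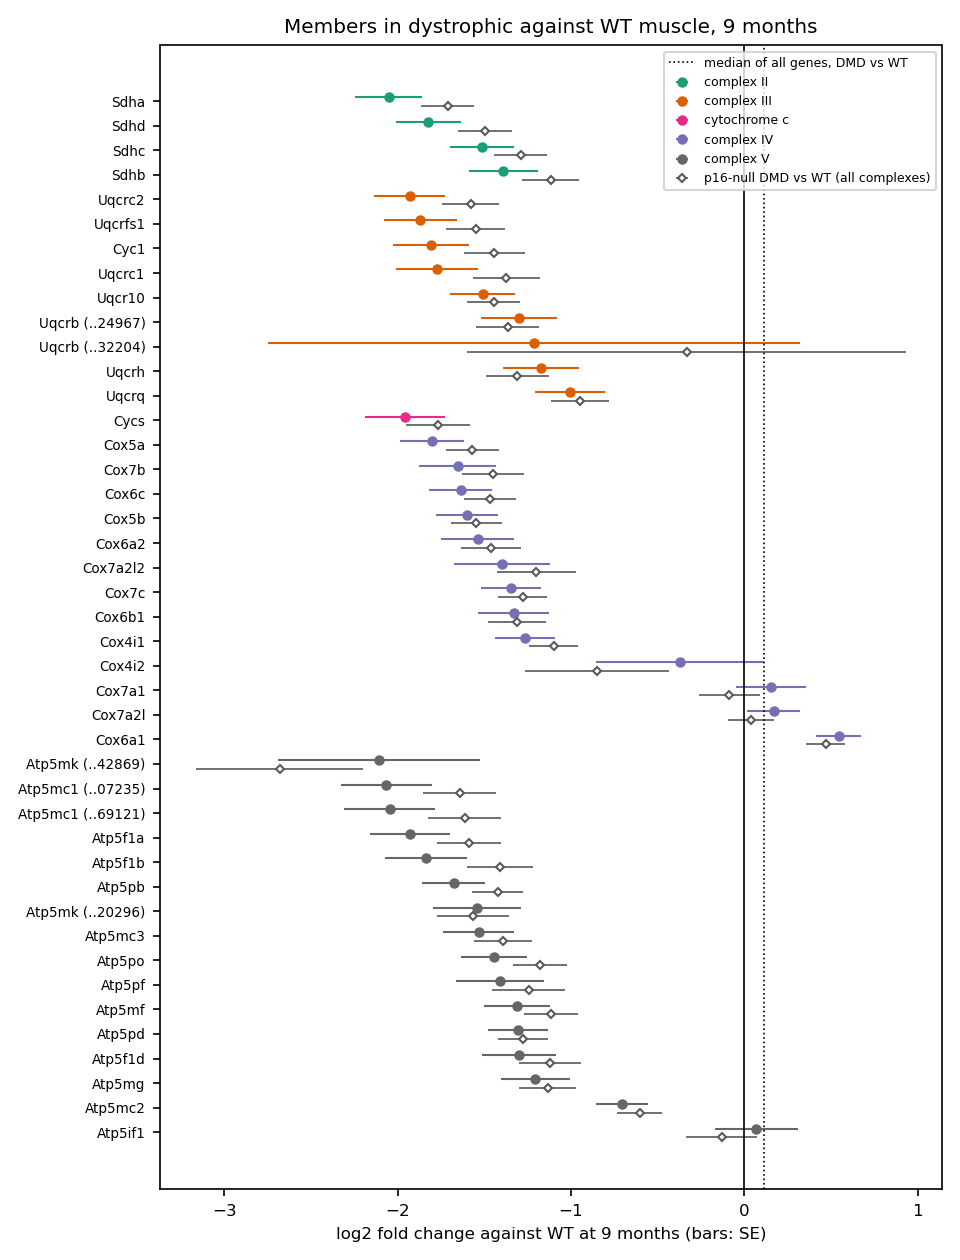
Log2 fold change against WT of 9 months with its standard error for each tested member, filled circles for DMD (coloured by complex) and open diamonds for p16-null DMD; the dotted line is the median of all genes in DMD against WT, 0.11. Most members lie well to the left of 0, Cox6a1 lies to the right in both groups, and Atp5mc2 at -0.70 lies between.

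The size of the shift depends on how libraries are scaled. TMM sets the median of all genes in DMD against WT at 0.11, whereas library totals set it at 0.76 and the deposited TPM at 0.64 on the log2(TPM + 1) scale. With library totals 34 members were lower and 4 higher, beside 1240 lower and 7691 higher of all genes, where TMM gave 3228 and 3914. The TPM gave 35 lower and 4 higher, beside 1044 lower and 8058 higher of all genes. Relative to the median of all genes the members' median was -1.62 with TMM, -1.62 with library totals and -1.36 with TPM. In TPM the members together took 2.88 ± 0.147% of the total in WT of 9 months (SD, n = 3), 1.73 ± 0.171% in DMD (n = 3) and 1.99 ± 0.157% in p16-null DMD (n = 6).

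**Figure D2:**
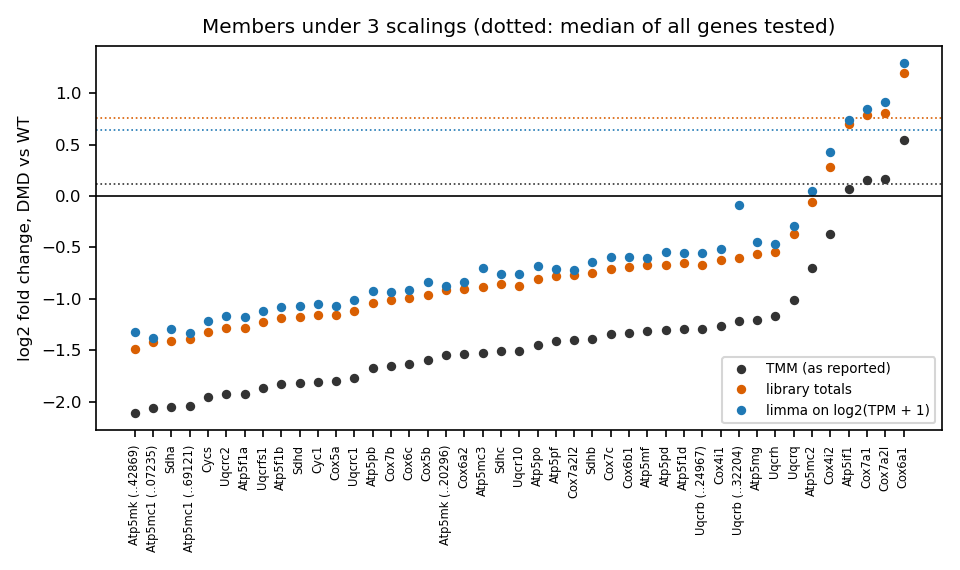
Log2 fold change of each tested member in DMD against WT under TMM scaling, library totals and limma on log2(TPM + 1), with dotted lines at the median of all genes, 0.11, 0.76 and 0.64. Most members stay below 0 under each scaling, while Cox7a1, Cox7a2l and Atp5if1 move up from near 0 and Atp5mc2 moves to about 0.

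Marker RNA of several cell types differed between WT and dystrophic muscle. Of 10 skeletal muscle fibre markers, 8 had an entry. Their summed CPM ran from 123051 to 141111 in WT of 9 months, from 32657 to 51550 in DMD and from 30473 to 57308 in p16-null DMD. All 8 had a negative log2 fold change in DMD (median -1.67) and 7 were called lower, against 21.8% of all genes. None of the 8 was at 0 CPM in every library of a group. Macrophage markers summed to 330 to 346 CPM in WT and 2029 to 3216 in DMD, with 8 of 8 called higher. Fibroblast markers summed to 1887 to 2055 and 4952 to 9243, with 6 of 6 higher. Adipocyte markers summed to 59.2 to 96.6 and 1096 to 1211, with 5 of 5 higher. Of all genes 26.4% were higher in DMD. The summed CPM of the members was 15.8 ± 1.61% of that of the fibre markers in WT of 9 months (range 14.7 to 17.6%, n = 3), 16.9 ± 3.44% in DMD (13.2 to 20.1%, n = 3) and 19.6 ± 4.98% in p16-null DMD (14.3 to 26.0%, n = 6). Set against the fibre markers of the same library, the groups of 9 months therefore overlapped. In such tissue RNA fewer fibres and less RNA per fibre cannot be told apart.

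Complex II, succinate dehydrogenase, fell in all 4 of its genes. Sdha, the flavoprotein that oxidises succinate, had 721, 796 and 744 CPM in WT of 9 months, 220, 167 and 156 in DMD, and 190 to 297 with a median of 229 in p16-null DMD. Every dystrophic library lay far below every WT library, and the log2 fold change in DMD was -2.05 ± 0.19 (SE, adjusted p = 2.5e-06), a fall of 4.15-fold. Sdhb, the iron-sulphur subunit, had 391, 468 and 355 CPM in WT, 191, 146 and 124 in DMD, and 165 to 241 with a median of 173 in p16-null DMD. Its fall of 1.39 ± 0.20 on the log2 scale was the smallest of the complex (adjusted p = 5.1e-05). Sdhc and Sdhd are the membrane anchors of the complex. Sdhc had 379, 354 and 311 CPM in WT and 147, 102 and 115 in DMD, with 111 to 178 (median 139) in p16-null DMD. Sdhd had 495, 519 and 443 CPM in WT and 165, 129 and 116 in DMD, with 127 to 211 (median 178) in p16-null DMD. Neither dystrophic group overlapped with WT of 9 months for either anchor. The log2 fold changes in DMD were -1.51 ± 0.19 for Sdhc (adjusted p = 1.6e-05) and -1.82 ± 0.19 for Sdhd (adjusted p = 5.0e-06). The catalytic Sdha and the anchor Sdhd fell further than Sdhb and Sdhc, though no test compared subunits with each other.

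In complex III the core and redox subunits showed the larger falls and the small subunits the smaller ones. Uqcrc2, a core subunit, had 662, 826 and 598 CPM in WT, 219, 168 and 157 in DMD, and 175 to 295 with a median of 228 in p16-null DMD. Its log2 fold change of -1.93 ± 0.21 was the largest fall of the complex (adjusted p = 6.1e-06). Cyc1, the haem protein cytochrome c1, had 485, 552 and 391 CPM in WT, 165, 128 and 114 in DMD, and 135 to 239 with a median of 166 in p16-null DMD. No dystrophic library reached a WT library of 9 months for Uqcrc2 or Cyc1, and Cyc1 had a log2 fold change of -1.81 ± 0.22 (adjusted p = 1.5e-05). Uqcrfs1, the Rieske iron-sulphur protein, and Uqcrc1, the other core subunit, had log2 fold changes of -1.87 ± 0.21 (adjusted p = 9.0e-06) and -1.77 ± 0.24 (adjusted p = 3.4e-05). The small subunits Uqcr10, Uqcrb (ENSRNOG00000024967) and Uqcrh fell 2.85-, 2.46- and 2.25-fold. Uqcrq, another small subunit, had 219, 191 and 155 CPM in WT, 82.7, 119 and 78.3 in DMD, and 81.3 to 125 with a median of 96.9 in p16-null DMD. Neither dystrophic group of Uqcrq overlapped with WT of 9 months. However, its log2 fold change in DMD of -1.01 ± 0.20 (adjusted p = 0.00084) was the smallest of the complex. It did not pass with library totals (-0.37, adjusted p = 0.078) or TPM (-0.29, adjusted p = 0.19). Uqcrh at -0.54 did not pass with library totals either (adjusted p = 0.055). The second Uqcrb entry (ENSRNOG00000032204) held at most 1.56 CPM and did not pass, and Uqcr11 had no entry under this symbol. The small subunits of the complex also have the shorter transcripts. Across the members, the 21 of longer effective length, taken from counts over TPM, had a median of -1.77 in DMD and the 21 shorter ones -1.40. Spearman's rho of length and log2 fold change was -0.32 over the 43 members and 0.06 over all genes. In DMD replicate 2 the medians relative to WT were -1.77 for the longer and -1.11 for the shorter members, the widest gap of the DMD libraries. The part of length in these differences was not tested.

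Cycs, cytochrome c, is the mobile carrier between complexes III and IV and also a trigger of apoptosis when it leaves the mitochondrion. It had 767, 896 and 831 CPM in WT of 9 months, 233, 236 and 171 in DMD, and 146 to 307 with a median of 248 in p16-null DMD. The log2 fold change in DMD was -1.95 ± 0.23 (adjusted p = 1.3e-05), and that in p16-null DMD -1.77 ± 0.19 (adjusted p = 3.6e-06). In TPM it stood at 907 ± 80.2 in WT and 390 ± 51.9 in DMD (SD, n = 3 each), still without overlap.

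Complex IV held both the falls common to the other complexes and the members that did not fall. Cox5a, a structural subunit on the matrix side, had 626, 666 and 613 CPM in WT, 208, 192 and 144 in DMD, and 159 to 251 with a median of 213 in p16-null DMD. Its log2 fold change of -1.80 ± 0.19 was the largest fall of the complex (adjusted p = 4.8e-06). The other small subunits Cox5b, Cox6b1, Cox6c, Cox7b and Cox7c fell by 1.33 to 1.65 on the log2 scale, each with adjusted p under 0.0001. Cox7a2l2 fell by 1.40 ± 0.28. Its deposited counts are not all whole, which marks reads shared between sequences, and the same holds for 9 other members: Cycs, Cox5a, Sdhd, Cox6b1, Cox6b1-ps1 and both entries of Uqcrb and of Atp5mk. Their levels are uncertain to the extent that reads were shared. Cox7a2l, which helps join complexes III and IV into supercomplexes, had 120, 105 and 109 CPM in WT and 116, 142 and 117 in DMD, with 101 to 136 (median 110) in p16-null DMD. These ranges overlapped, and the log2 fold change in DMD was 0.17 ± 0.15 (adjusted p = 0.38). Cox7a2l passed as higher when scaled by library totals (0.81, adjusted p = 0.00081) or TPM (0.91, adjusted p = 0.00035).

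The isoforms of subunit 6a moved in opposite directions. Cox6a2, the heart and muscle isoform, had 827, 974 and 797 CPM in WT of 9 months, 310, 366 and 215 in DMD, and 248 to 379 with a median of 313 in p16-null DMD. Cox6a1, the isoform of most other tissues, had 64.7, 55.9 and 60.1 CPM in WT, 78.9, 85.9 and 98.2 in DMD, and 77.8 to 91.1 with a median of 81.9 in p16-null DMD. All dystrophic libraries lay below WT for Cox6a2 and above WT of the same age for Cox6a1. The log2 fold changes in DMD were -1.54 ± 0.21 for Cox6a2 (adjusted p = 3.8e-05) and 0.54 ± 0.13 for Cox6a1 (adjusted p = 0.0028), and with TMM Cox6a1 was the only member called higher, in p16-null DMD too (0.47 ± 0.11, adjusted p = 0.0030). Cox6a1 reached 88.2 CPM in a WT library of 3 months, so its dystrophic range of 77.8 to 98.2 CPM overlapped with WT of other ages. Per length, WT muscle of 9 months held 17.1 to 21.9 times as much Cox6a2 as Cox6a1 in TPM, DMD 2.84 to 5.40 times and p16-null DMD 3.97 to 6.38 times. The mean log2 ratio went from 4.22 to 2.09 in DMD, a difference of -2.13 without overlap (two-sided exact permutation p = 0.10, the smallest that 3 against 3 libraries can give), and that of p16-null DMD was 2.28 (exact permutation p = 0.0238). After adjustment over the 16 ratio tests the lowest p was 0.19, so no ratio passed. A ratio within a library does not depend on the scaling between libraries, and the markers of macrophages, fibroblasts and adipocytes that were higher in the same libraries are given above. Their part in this ratio was not tested.

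Cox7a1, the heart and muscle isoform of subunit 7a, did not follow Cox6a2. It had 63.5, 58.2 and 60.0 CPM in WT of 9 months, 51.9, 94.9 and 55.0 in DMD, and 47.5 to 63.5 with a median of 57.6 in p16-null DMD. DMD replicate 2 stood above all other libraries, the ranges overlapped, and the log2 fold change was 0.16 ± 0.20 (adjusted p = 0.55) in DMD and -0.09 ± 0.17 (adjusted p = 0.71) in p16-null DMD. It passed as higher in DMD with library totals (0.79, adjusted p = 0.0030) and TPM (0.85, adjusted p = 0.0011). Its ubiquitous partner Cox7a2, and Cox8a, Cox8b and Cox6b2, had no entry under these symbols and were not analysed here. For subunit 4, Cox4i1, the main isoform, had 669, 718 and 584 CPM in WT, 318, 269 and 229 in DMD, and 273 to 353 with a median of 302 in p16-null DMD. Both dystrophic groups of Cox4i1 were apart from WT of 9 months. Its fall of 1.26 ± 0.17 on the log2 scale in DMD was the smallest fall called in the complex (adjusted p = 3.7e-05). Cox4i2, an isoform tied to low oxygen, was scarce, with 5.39, 2.84 and 2.39 CPM in WT, 3.55, 2.56 and 2.10 in DMD, and 1.26 to 3.90 with a median of 1.73 in p16-null DMD. Its ranges overlapped, and it did not pass in DMD (log2 fold change -0.37 ± 0.48, adjusted p = 0.56) or p16-null DMD (-0.85 ± 0.42, adjusted p = 0.10). The latter passed without the p16-null DMD library of replicate 6, at -1.18 (adjusted p = 0.016). The Cox4i2 to Cox4i1 ratio in TPM was 0.00503 to 0.00976 in WT and 0.0117 to 0.0139 in DMD, a mean log2 difference of 0.99 (exact permutation p = 0.10, adjusted 0.19). In p16-null DMD it was 0.00612 to 0.0145, which overlapped with WT (0.38, exact permutation p = 0.357).

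**Figure D3:**
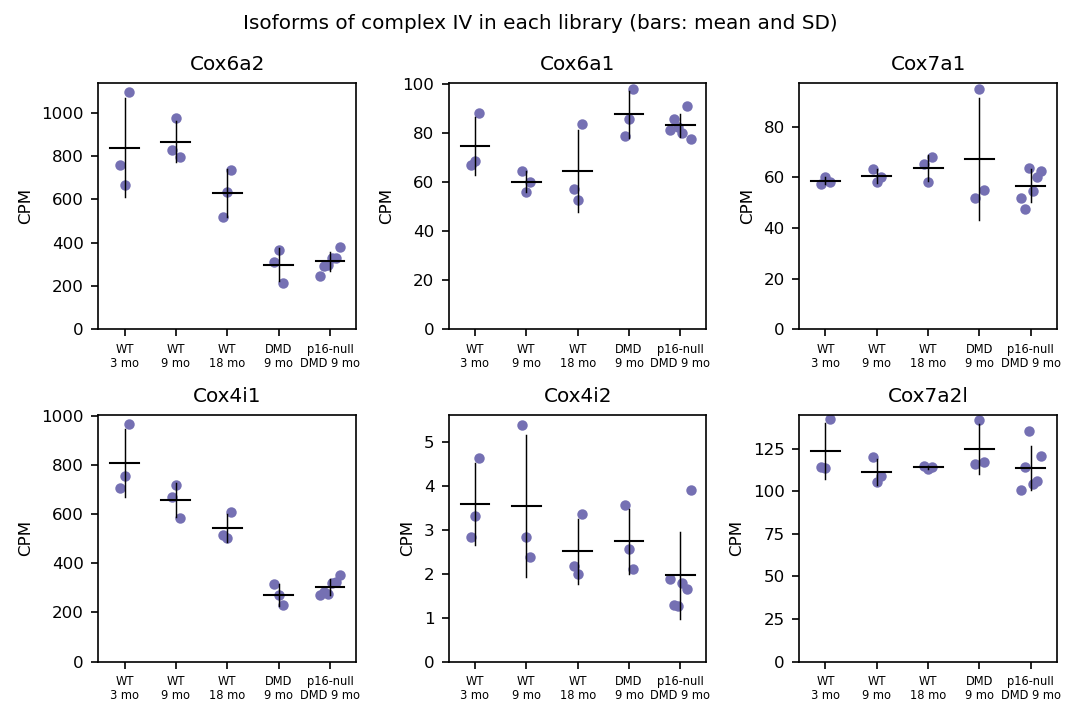
CPM of 6 complex IV genes in every library of the 5 groups, with bars for the mean and SD; each vertical axis starts at 0. Cox6a2 and Cox4i1 drop in both dystrophic groups, Cox6a1 stands at 77.8 to 98.2 there against 55.9 to 64.7 in WT of 9 months, and Cox7a1 and Cox7a2l overlap between the groups of 9 months.

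The tested genes of complex V fell in its catalytic head, its stalk and its membrane ring, while Atp5f1c, Atp5f1e and Atp5mj had no entry under these symbols and were not analysed here. Atp5f1a and Atp5f1b are the alpha and beta subunits of the catalytic head. Atp5f1b had 3749, 3954 and 3100 CPM in WT, 1207, 936 and 873 in DMD, with 1045 to 1896 (median 1346) in p16-null DMD, and had a log2 fold change of -1.83 ± 0.24 (adjusted p = 2.5e-05). Atp5f1a fell by 1.93 ± 0.23 (adjusted p = 1.4e-05) and Atp5f1d, the delta subunit, fell 2.46-fold (adjusted p = 0.00019). The stalk subunits Atp5pb, Atp5pd, Atp5pf and Atp5po fell 2.47- to 3.20-fold. The membrane subunits Atp5mf, Atp5mg and Atp5mk fell 2.30- to 2.91-fold, and a second Atp5mk entry (ENSRNOG00000042869) fell from 2.90 ± 1.02 to 0.660 ± 0.216 CPM (SD, n = 3 each), a 4.31-fold fall at few counts (adjusted p = 0.0078). Apart from Atp5mc2 and Atp5if1, every tested gene of the complex was called lower, by 2.30-fold or more.

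The rotating c-ring is built from a single mature protein that 3 genes encode, and all 3 were called lower in DMD, with different fitted falls. Atp5mc1 appears as 2 entries with the same symbol, between which reads may be split. The larger one (ENSRNOG00000069121) had 357, 364 and 295 CPM in WT, 117, 64.1 and 63.6 in DMD, and 76.7 to 156 with a median of 108 in p16-null DMD. Its log2 fold change in DMD was -2.04 ± 0.26 (adjusted p = 2.4e-05), and that of the smaller entry -2.06 ± 0.26 (adjusted p = 2.1e-05). Atp5mc3 had 467, 504 and 379 CPM in WT, 191, 150 and 122 in DMD, and 129 to 213 with a median of 172 in p16-null DMD, a log2 fold change of -1.53 ± 0.21 in DMD (adjusted p = 3.3e-05). Atp5mc2 had 329, 283 and 255 CPM in WT, 180, 191 and 159 in DMD, and 167 to 214 with a median of 186 in p16-null DMD. Its groups stayed apart, but its fall of 0.70 ± 0.15 on the log2 scale was the smallest of all called falls (adjusted p = 0.0014), and it was lost with library totals (-0.06, adjusted p = 0.72) and turned to 0.045 with TPM (adjusted p = 0.80). In TPM, Atp5mc2 stood at 0.613 to 0.882 times Atp5mc3 in WT, at 1.01 to 1.49 times in DMD and at 1.05 to 1.59 times in p16-null DMD. The mean log2 ratio was higher by 0.75 in DMD (exact permutation p = 0.10) and by 0.84 in p16-null DMD (exact permutation p = 0.0238, adjusted 0.19), with no overlap in either. The Atp5mc1 to Atp5mc3 ratio was 0.605 to 0.726 in WT and 0.315 to 0.521 in DMD, a difference of -0.66 in the mean log2 ratio (exact permutation p = 0.10, adjusted 0.19). In p16-null DMD it was 0.5003 to 0.662, which overlapped with WT (-0.21, exact permutation p = 0.119) and with DMD (0.45 higher than DMD, exact permutation p = 0.0476, adjusted 0.19).

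Atp5if1, the inhibitor that holds the synthase back when the gradient fails, had 37.6, 31.9 and 37.2 CPM in WT, 24.2, 51.9 and 35.8 in DMD, and 24.5 to 40.5 with a median of 31.9 in p16-null DMD. The groups overlapped and the log2 fold change in DMD was 0.07 ± 0.24 (adjusted p = 0.83). With library totals (0.70, adjusted p = 0.025) or TPM (0.74, adjusted p = 0.013) it passed as higher in DMD.

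Loss of p16 on the DMD background was not accompanied by any called change of these genes. None of the 43 passed between p16-null DMD and DMD with edgeR, DESeq2 or limma, none had an unadjusted p under 0.05 with edgeR, and the lowest was 0.053 for Sdha and for Atp5f1b. Of all genes 0% were higher and 0.00676% lower, that is 1 gene, and DESeq2 called 2 higher and 10 lower. The members' log2 fold changes were positive for 34 and negative for 9, with a median of 0.17 where that of all genes was 0.02. Sdha had 220, 167 and 156 CPM in DMD against 190 to 297 in p16-null DMD, a log2 fold change of 0.34 ± 0.16 (adjusted p = 0.92). Atp5f1b differed by 0.42 ± 0.20 (adjusted p = 0.92). All 43 members overlapped between these groups. Leaving out DMD replicate 3, the DMD library with the lowest levels, took the median to 0.03, and leaving out DMD replicate 1 took it to 0.27. Without replicate 1 of DMD the count over all genes rose to 5 higher and 80 lower, and no member was among them. A p that misses the threshold does not show that the groups are alike.

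The libraries of a group moved as a set. Relative to the WT mean of 9 months, the median member stood at -1.42, -1.30 and -1.84 on the log2 scale in the 3 DMD libraries and between -1.67 and -1.17 in the 6 p16-null DMD libraries. WT libraries of 9 months stood at -0.01, 0.13 and -0.14, those of 3 months at 0.10, 0.19 and 0.52, and those of 18 months at -0.45, -0.36 and -0.26. Set against WT of any age, 35 of 43 members were lower in all 9 dystrophic libraries than in all 9 WT libraries, as were 11.2% of all 14982 genes in the fit of every library, and 0 members were above (10.3% of all genes). The 8 that overlapped were Cox6a1, Cox7a1, Cox7a2l, Cox4i2, Atp5if1, Atp5f1d and the sparse second entries of Uqcrb and Atp5mk. On TPM, 26 members were below (2.54% of all genes) and 1, Cox6a1, was above (28.2%). Cox6a1 had 160 to 296 TPM in the WT libraries and 372 to 553 in the dystrophic ones.

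**Figure D4:**
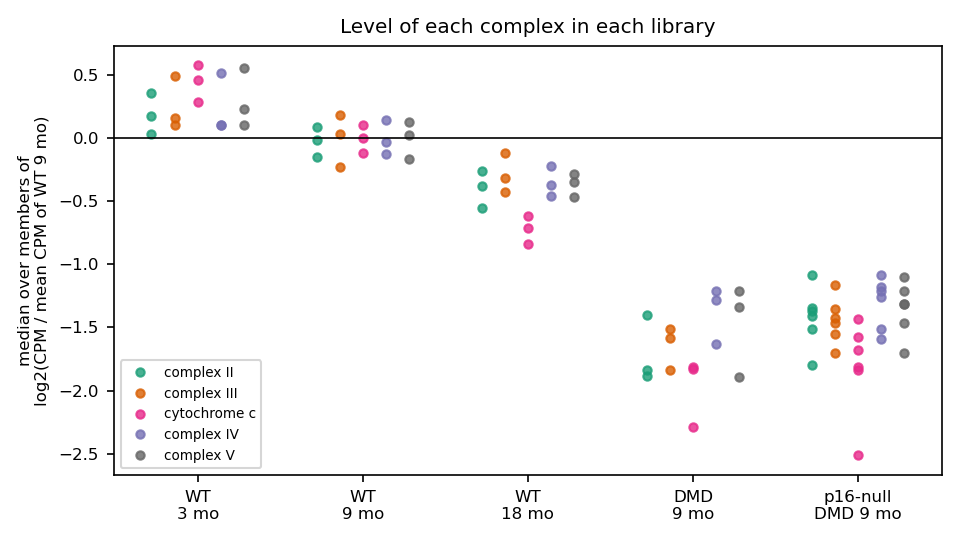
Median over the members of each complex of log2(CPM / mean CPM of WT of 9 months), 1 point per library, with colours for complexes. WT of 3 months lies above 0, WT of 18 months between -0.84 and -0.12, and every dystrophic library between -2.51 and -1.08 in each complex.

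Age in WT muscle was accompanied by smaller falls in many of the same genes. Between 3 and 18 months, 29 of 42 tested members were lower, 1 was higher and 12 did not pass, against 10.1% lower and 9.31% higher of all 13487 genes tested. The members' median log2 fold change was -0.66, and that of all genes 0.003. Complex II had 2 of 4 genes lower, complex III 6 of 8, complex IV 8 of 13 and complex V 12 of 16, beside cytochrome c. Library totals gave 21 lower and 1 higher (4.83% and 19.3% of all genes) beside a median of all genes of 0.24. The TPM gave 20 lower and 3 higher (3.18% and 22.5% of all genes) beside 0.29. The members' median relative to all genes was -0.66, -0.65 and -0.62 under TMM, library totals and TPM. Macrophage markers were higher at 18 months as well, 8 of 8, summing to 287 to 454 CPM at 3 months and 551 to 804 at 18 months. Fibroblast markers were lower in 3 of 6 cases (median log2 fold change -0.43), summing to 3284 to 6390 and 1794 to 2054 CPM. Fibre markers summed to 119163 to 143804 and 76713 to 86602 CPM, with 4 of 8 lower. The members stood at 19.0 ± 0.820% of the fibre markers at 3 months and 19.7 ± 1.53% at 18 months (SD, n = 3 each), which overlapped. WT of 9 months, at 14.7 to 17.6%, lay below both ages (18.5 to 20.0% and 18.6 to 21.5%).

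Cycs showed the largest fall with age. It had 1015, 1146 and 1242 CPM at 3 months and 466, 543 and 507 at 18 months, with 767, 896 and 831 at 9 months between, and the 3 ages did not overlap. The log2 fold change was -1.16 ± 0.13 (adjusted p = 2.5e-05), a 2.23-fold fall. The next falls were those of the larger Atp5mc1 entry (-1.02 ± 0.15, adjusted p = 0.00033), Cox7b, a small subunit of complex IV (-0.97 ± 0.14, adjusted p = 0.00029), the larger Atp5mk entry (-0.93 ± 0.15, adjusted p = 0.00060) and the smaller Atp5mc1 entry (-0.93 ± 0.16, adjusted p = 0.00086). In complex II the anchors Sdhc, at 379, 410 and 446 CPM at 3 months and 202, 234 and 240 at 18 months, and Sdhd, at 505, 568 and 618 against 305, 362 and 372, did not overlap between the ages. Their log2 fold changes were -0.86 ± 0.12 (adjusted p = 0.00023) and -0.70 ± 0.13 (adjusted p = 0.0016). Sdha, the member of complex II with the largest fall in DMD, had 730, 785 and 796 CPM at 3 months and 555, 598 and 683 at 18 months, and did not pass (-0.32 ± 0.12, adjusted p = 0.086). Sdhb (-0.38, adjusted p = 0.080), Cyc1 (-0.41, adjusted p = 0.051), Uqcrc1 (-0.44, adjusted p = 0.073), Atp5f1b (-0.43, adjusted p = 0.053) and Atp5mc2 (-0.40, adjusted p = 0.063) also lay just outside the threshold.

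The other falls with age were spread over complexes III to V. In complex III, Uqcr10, Uqcrfs1, Uqcrh, Uqcrb and Uqcrc2 fell by 0.50 to 0.76 on the log2 scale. Cox5a, Cox6c, Cox7c, Cox6b1 and Cox4i1 of complex IV fell by 0.56 to 0.76, and Cox7a2l2 by 0.66. In complex V, Atp5pf, Atp5f1d, Atp5mg, Atp5mf, Atp5po and Atp5mc3 fell by 0.72 to 0.80, Atp5pb by 0.66, Atp5f1a by 0.57 and Atp5pd by 0.49. Some of these calls changed when 1 library was left out. Without replicate 3 of 3 months, Uqcrq went from -0.73 (adjusted p = 0.048) to -0.30 (adjusted p = 0.24), Cox5b from -0.53 (adjusted p = 0.034) to -0.32 (adjusted p = 0.12), and Uqcr10 to -0.50 while still passing. Leaving out replicate 1 or replicate 2 of 18 months each lost the same 5 calls, with log2 fold changes that stayed within 1.5 times those of all libraries. Without replicate 1 these were Atp5f1a (-0.47, adjusted p = 0.077), Cox4i1 (-0.52, 0.055), Cox5b (-0.43, 0.15), Uqcrc2 (-0.44, 0.066) and Uqcrq (-0.60, 0.18). Without replicate 2 they stood at -0.54 (adjusted p = 0.067), -0.51 (0.064), -0.51 (0.11), -0.48 (0.057) and -0.66 (0.16). Uqcrc2 also did not pass without replicate 2 of 3 months (adjusted p = 0.053). A further 3 passed without replicate 3 of 18 months, namely Atp5f1b (adjusted p = 0.035), Cyc1 (0.025) and Uqcrc1 (0.017), and 3 without replicate 1 of 3 months, namely Atp5f1b (0.045), Atp5mc2 (0.044) and Sdhb (0.041).

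Atp5if1 was the only member called higher with age. It had 23.6, 20.0 and 36.9 CPM at 3 months, 37.6, 31.9 and 37.2 at 9 months, and 47.0, 48.5 and 54.7 at 18 months. The libraries of 18 months stood above all younger ones, and the log2 fold change from 3 months was 0.91 ± 0.19 (adjusted p = 0.0033). The isoforms of complex IV that did not fall in DMD did not pass with age either, with Cox6a1 at -0.20 ± 0.17 (adjusted p = 0.46), Cox7a1 at 0.13 ± 0.12 (adjusted p = 0.52), Cox7a2l at -0.11 ± 0.12 (adjusted p = 0.60) and Cox4i2 at -0.50 ± 0.40 (adjusted p = 0.43). On TPM, Cox7a1 (0.46, adjusted p = 0.032) and Cox7a2l (0.38, adjusted p = 0.033) passed as higher. Cox6a2 had 757, 664 and 1096 CPM at 3 months and 517, 634 and 736 at 18 months, which overlapped (-0.41 ± 0.18, adjusted p = 0.13). The Cox6a2 to Cox6a1 ratio in TPM was 12.6 to 16.6 at 3 months and 11.3 to 15.3 at 18 months, a difference of -0.20 in the mean log2 ratio (exact permutation p = 0.30). At 9 months, the age of the dystrophic rats, it was 17.1 to 21.9 in WT, above every WT library of the other ages. The dystrophic ratios, at most 6.38, lay below all WT ages.

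The 9-month WT libraries, which the study did not set against the other ages, fell between them in most genes. Mean CPM was highest at 3 months and lowest at 18 months for 36 of 42 members, as for 20.5% of the 13428 genes tested in both fits. The ranges of 3 and 9 months were apart for 12 members (19.6% of all genes) and overlapped for 30. Those of 9 and 18 months were apart for 23 (33.4% of all genes) and overlapped for 19. The exceptions to the order were Atp5if1 and Cox7a1, with means highest at 18 months, Cox6a2 and the sparse Atp5mk entry, highest at 9 months, and Cox6a1 and Cox7a2l, lowest at 9 months.

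Set side by side, 29 of 42 members were lower both in DMD at 9 months and in WT at 18 months, 2 comparisons that share no library, as were 7.16% of the 13428 genes tested in both. Another 8 were called lower in DMD and did not pass with age. Cox6a1 was higher in DMD and did not pass with age, Atp5if1 was higher with age and did not pass in DMD, and 3 members passed in neither. Across the 42 members tested in both, Pearson's r of the log2 fold changes was 0.64 and Spearman's rho 0.32, as a description over genes that are not independent replicates. The larger Atp5mc1 entry was among the largest falls in both, at -2.04 and -1.02, and Cycs stood at -1.95 and -1.16. Sdha had -2.05 in DMD and -0.32 with age. The difference between the effects was not tested.

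**Figure D5:**
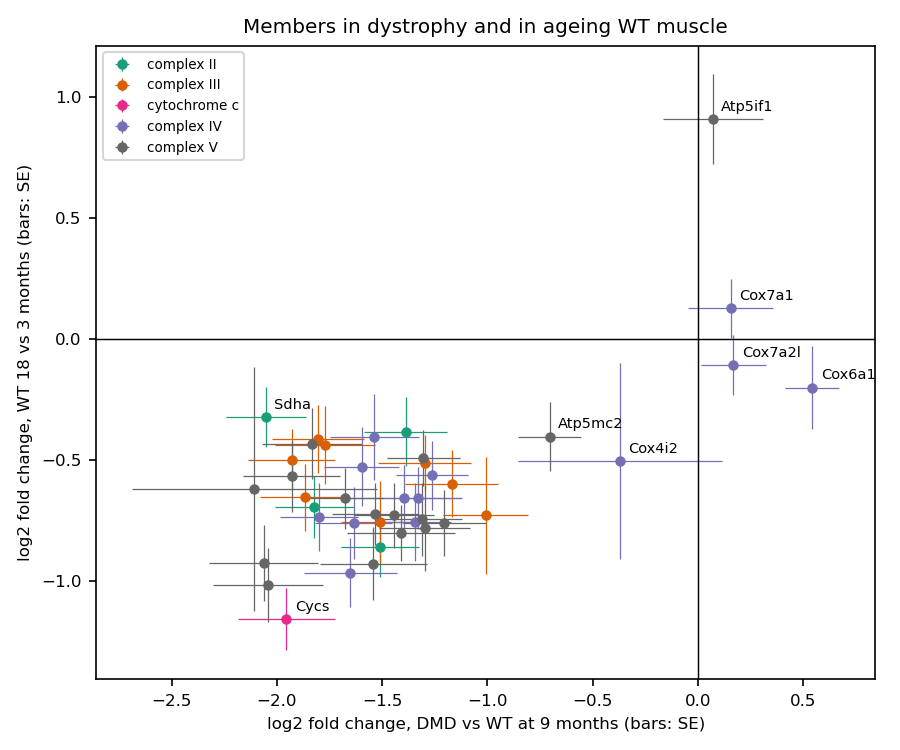
Log2 fold change of each member in DMD against WT of 9 months (horizontal) and in WT of 18 against 3 months (vertical), with standard errors and colours for complexes. Most members lie at the lower left, Cycs lowest with age, while Atp5if1 stands at 0.91 with age and Cox6a1 is the member farthest to the right.

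Genes that work with these complexes moved alongside them. In DMD, 23 of 29 tested assembly factors of complexes II to V were lower and 0 higher, where 21.8% of all genes were lower, with a median log2 fold change of -1.02. They included Sdhaf2, which attaches the flavin to Sdha (-1.34 ± 0.14, adjusted p = 4.5e-06), Ttc19 (-1.73 ± 0.21, adjusted p = 1.3e-05) and Uqcc1 (-1.31 ± 0.16, adjusted p = 1.5e-05), both of which serve complex III. Of the complex I subunits, 33 of 34 were lower (median -1.42), including Ndufab1 (-1.92 ± 0.18), Ndufb6 (-1.67 ± 0.15) and Ndufb4 (-1.62 ± 0.14), and Ndufs5 did not pass (-0.48, adjusted p = 0.21). All 13 enzymes of the TCA cycle, which feeds the chain, were lower (median -1.68), among them Sucla2 (-1.90 ± 0.18), Suclg1 (-1.68 ± 0.18) and Fh (-1.63 ± 0.18). The subunits encoded by mitochondrial DNA were lower in 5 of 6 cases (median -1.41), with Mt-co1, the catalytic subunit of complex IV, at -1.78 ± 0.33 (adjusted p = 0.00042), Mt-cyb of complex III at -1.60 ± 0.29 (adjusted p = 0.00035) and Mt-co3 at -1.44 ± 0.29 (adjusted p = 0.00097). These 6 genes took 20.2 ± 3.97% of TPM in WT of 9 months (n = 3), 12.4 ± 2.15% in DMD (n = 3) and 12.4 ± 2.30% in p16-null DMD (n = 6). Genes of import and inner membrane structure were lower in 13 of 14 (median -0.98), including Chchd3 (-1.77 ± 0.16), Timm23 (-1.57 ± 0.15) and Hspa9 (-1.28 ± 0.15). With age, 10 of 29 assembly factors, 27 of 34 complex I subunits, 9 of 13 TCA enzymes and 5 of 14 import genes were lower and none of these was higher, where 10.1% of all genes were lower and 9.31% higher. Of the mitochondrial DNA subunits Mt-co2 was lower (-0.51, adjusted p = 0.027) and Mt-atp8 higher (0.76, adjusted p = 0.0084), both named after their values were seen.

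Regulators of mitochondrial biogenesis did not move as a block in DMD, where 9 of 15 were lower and 1 higher (median -0.83, against 21.8% and 26.4% of all genes), the latter Pprc1, a relative of PGC-1alpha named after its value was seen (1.04 ± 0.29, adjusted p = 0.0091). Perm1, a muscle activator of oxidative genes, went from 165 ± 27.5 to 22.2 ± 12.3 CPM (SD, n = 3 each), a log2 fold change of -2.88 ± 0.41 (adjusted p = 5.8e-05). Esrra, an oestrogen-related receptor that binds the receptor letters searched above, fell by 1.71 ± 0.26 (adjusted p = 8.7e-05). Ppargc1a, the coactivator PGC-1alpha, fell from 14.7 ± 2.48 to 6.28 ± 2.61 CPM (-1.22 ± 0.29, adjusted p = 0.0032), and the mitochondrial transcription factors Tfb2m and Tfam fell by 1.24 ± 0.22 (adjusted p = 0.00028) and 0.83 ± 0.16 (adjusted p = 0.00052). Nrf1 and Gabpa, whose motifs were also searched, did not pass, with 15.5 ± 5.05 CPM in WT and 21.8 ± 1.29 in DMD for Nrf1 (0.49 ± 0.22, adjusted p = 0.074) and 37.9 ± 7.81 and 31.1 ± 3.19 for Gabpa (-0.27 ± 0.17, adjusted p = 0.19). With age 3 of 15 were lower, against 10.1% of all genes, and 1 was higher, a share near the 9.31% of all genes. In that comparison Perm1 (-0.98 ± 0.17, adjusted p = 0.00079), Esrra (-0.53 ± 0.16, adjusted p = 0.030) and Tfb2m (-0.53 ± 0.12, adjusted p = 0.0073) fell, while Ppargc1a (0.05 ± 0.21, adjusted p = 0.90), Tfam (0.08 ± 0.12, adjusted p = 0.71), Nrf1 (-0.09 ± 0.20, adjusted p = 0.80) and Gabpa (0.17 ± 0.13, adjusted p = 0.40) did not pass. The gene called higher with age was Esrrg, another oestrogen-related receptor, also named after its value was seen (0.64, adjusted p = 0.048), which in DMD was lower (-2.34 ± 0.62, adjusted p = 0.0063).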

How the data were processed

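Total RNA from frozen tibialis anterior sections was sequenced, per the labels' protocols, after library preparation with the TruSeq RNA Library Prep Kit. STAR 2.7.10b, RSEM 1.3.3, Trimmomatic, FastQC and the build mRatBN7.2 are named, without roles, per the submitters' processing notes. Annotation release and strandedness: not given in the sources used here. The authors deposited expected counts per gene, fractional where RSEM shares reads, and TPM, which the authors scaled by transcript length. Groups came from the genotype and age labels.

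Expected counts were rounded and filtered with filterByExpr. Entries without a symbol (3.64 to 17.6% of a library's counts) are included as genes. edgeR 4.0.16 (TMM scaling, quasi-likelihood test, Benjamini-Hochberg adjustment over all genes tested) was fitted to the 9-month libraries together and to the 3 and 18-month libraries together, and checked on simulated data. Isoform ratios used the deposited TPM + 0.1 and exact permutation tests (scipy 1.17.1). Alternatives were DESeq2 1.42.0, limma 3.58.1 on log2 TPM, other scalings and filters, a replicate block and leaving out each library. Replicate pairs differed by more than counting noise. Members, gene lists and tests were chosen with earlier results of these data known. Values of every WT and DMD library of 9 months were given for Sdh genes, Cyc1, Cycs, isoform pairs and the largest and smallest falls of each complex. The exception was the sparse Atp5mk entry of complex V, given as mean and SD. For p16-null DMD the range and median were given. From each other list except the cell type markers, the 3 smallest p-values in DMD against WT were named, with fixed regulators. Promoter sequences are from RefSeq.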

Additional observations from a re-analysis of the deposited data

Results flagged for a closer look

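Cox4i2, the scarce isoform of subunit 4, stood at 3.90 CPM in replicate 6 of p16-null DMD, while the other 5 libraries of the group ran from 1.26 to 1.87 CPM. The gap to the nearest library was 0.768 of the group's range, above Dixon's critical value for 6 libraries. Of 47 groups tested in this way 1 was singled out, and chance alone does so in about 1 of 20. Without that library Cox4i2 passed as lower in p16-null DMD than in WT (log2 fold change -1.18, adjusted p = 0.016).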

How the results depend on the processing

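Across all alternatives, 37 members (36 to 38) were called lower in DMD and in p16-null DMD against WT except with library totals (34 and 35) and TPM (35 and 32), and 0 in p16-null DMD against DMD. Members called higher rose from 1 to 4 in DMD with library totals and with TPM (+ 0.1 and + 1), to 3 with library totals and 4 with TPM in p16-null DMD against WT, and to 3 with TPM between 18 and 3 months. Lower calls with age ran from 20 with TPM to 36 with the replicate block. Signs turned for Atp5mc2 in DMD (0.045 with both TPM pseudocounts) and in p16-null DMD against WT (0.0038 with library totals, 0.18 with TPM), for Cox7a1 in p16-null DMD against WT (0.52 with library totals, 0.66 and 0.65 with TPM + 0.1 and + 1), Atp5if1 there (0.65 with TPM), Gabpa there (0.58, 0.71 and 0.66) and Kdr there (0.027 with TPM), for Cdh5 in DMD (0.026, 0.082 and 0.081) and with age (0.35 and 0.34), and with age for Cox7a2l (0.39 and 0.38) and Vdac2 (0.0044 and 0.0043 with TPM). Each turned from negative to positive, the direction in which these scalings move the median of all genes; Kdr and Cdh5 are endothelial markers. Leaving out each library gave 37 to 37 lower and 1 to 1 higher in DMD, 37 to 38 and 1 to 1 in p16-null DMD against WT, 0 to 0 in p16-null DMD against DMD, and 24 to 32 and 1 to 1 with age; the members' median stayed between -1.59 and -1.34 in DMD and between -0.73 and -0.51 with age.

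With the replicate number as a block, 37 members were lower and 1 higher in DMD, 38 and 1 in p16-null DMD against WT, 0 in p16-null DMD against DMD and 36 and 1 with age. Deviations from the group means correlated at -0.198 to 0.055 between same-numbered libraries and at -0.279 to 0.299 between differently numbered ones. Only replicates 1 to 3 were compared, so this check does not settle what the numbers stand for.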

Other observations

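The carriers that exchange the ATP made by complex V for ADP moved in opposite directions by isoform. A list of 9 genes for carriers, porins and mitochondrial creatine kinase had 6 that were tested. In DMD, 5 of the 6 were lower and 1 higher (median log2 fold change -1.69), where 21.8% of all genes were lower and 26.4% higher. Vdac1, a pore of the outer membrane, stood at -2.01 ± 0.20, Vdac3 at -1.48 ± 0.17 and Vdac2 at -1.42 ± 0.16. Slc25a4, the ADP/ATP carrier of heart and muscle, had a log2 fold change of -1.90 ± 0.23 (adjusted p = 1.5e-05), while Slc25a5, the carrier of most other tissues, was higher by 1.10 (adjusted p = 0.00022) in DMD and by 1.05 in p16-null DMD (adjusted p = 0.00011). Both carriers were named after their values were seen. Haemoglobin RNA was lower in DMD and at 18 months, with Hbb-b1 at -2.84 ± 0.31 (adjusted p = 7.8e-06) and -2.38 ± 0.21 (adjusted p = 3.2e-06). Endothelial markers summed to 420 to 507 CPM in WT of 9 months and 342 to 480 in DMD. Of 4 heart markers 2 were tested, Myh6 and Myl4. Both were higher in DMD (log2 fold changes 2.57 and 2.59), as were 26.4% of all genes, and 1 of the 2 in p16-null DMD against WT. Myl4, which developing muscle also makes, went from 19.8 ± 2.40 to 119 ± 33.6 CPM in DMD (SD, n = 3 each). Myl7 was at 0 in every WT library of 9 months and every DMD library. Nppa was at 0 in every WT library of 9 months but not in every DMD library.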
